A study of Homo sapiens with 12 samples.

Results

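The response of NCI-H1975 cells to 2 siRNAs labelled siDYN-1 and siDYN-2 was examined by RNA sequencing, each against 1 library of the same line with a control siRNA (siCON). Genes with a symbol and complete values, and at least 1 FPKM (a read level corrected for transcript length and library size) in 1 or more of these 3 libraries, were taken. They numbered 11509 of 17442 complete genes. Changes were differences of log2(FPKM + 1) from siCON, so they understate the change of low genes. Of the 11509 genes, 4569 (39.7%) were higher and 4446 (38.6%) were lower with both siRNAs, 9015 in all, and the other 2494 were not of 1 sign. Because both differences use the same siCON library, a high or low siCON value moves both the same way, and these counts are a description with no test. Counts of list members in NCI-H1975 below are to be read beside the shares of 39.7% higher and 38.6% lower. Those in HCC827, the other line, are to be read beside 34.3% of all genes higher and 35.2% lower in both of its siDYN libraries.

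NCI-H1975 and HCC827 are established cell lines from human non-small cell lung cancers with activating EGFR mutations. The siRNA experiment held 6 libraries, 1 each of siCON, siDYN-1 and siDYN-2 in each line, and a time of 48 h is given for the siDYN samples alone. No sample was labelled as a repeat culture, and the labels give neither the sequence nor the dose of the siRNAs. The series also holds 6 libraries of cells given DMSO or the compound 18E, not analysed here.

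DYNC1LI1 encodes a light intermediate chain (LIC1) of cytoplasmic dynein 1, the motor that carries cargo toward the minus ends of microtubules. The light intermediate chains join the motor to adaptor proteins, which in turn hold endosomes, Golgi membranes, autophagosomes and mitotic structures. The series title names LIC1 as the target of a compound that acts through autophagy. The labels name the siRNAs siDYN without a target gene, and DYNC1LI1 was taken as their target because of that title.

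DYNC1LI1 was lower with both siRNAs. Levels are given throughout in the order siCON, siDYN-1, siDYN-2. DYNC1LI1 was at 23.7, 5.10 and 3.04 FPKM in NCI-H1975, which left 21.5% and 12.8% of siCON. Both siDYN libraries were far below siCON, and siDYN-2 was the lower. The mean log2 change of the 2 siRNAs was -2.32 ± 0.38 (SE, n = 2 siRNAs). Its levels in HCC827 were 16.3, 2.42 and 1.22 FPKM.

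The other subunits of dynein 1 went in both directions and by less. DYNC1LI2, the paralogous light intermediate chain, was at 27.1, 21.4 and 20.1 FPKM, so no higher level of the paralogue accompanied the lower DYNC1LI1. DYNC1H1, the heavy chain that holds the motor domain, was at 27.0, 17.2 and 16.5 FPKM. A pair of light chains was above siCON with both siRNAs: DYNLT1 was at 153.8, 239.6 and 311.5 FPKM, and DYNLL1 at 502.0, 683.6 and 771.9 FPKM. DYNC1I2, an intermediate chain, was at 39.4, 35.5 and 42.2 FPKM, on both sides of siCON. Of the 11 measured subunits 5 were higher and 4 lower with both siRNAs, 45.5% and 36.4% against 39.7% and 38.6% of all genes. The 5 higher ones include DYNLRB2, which was near the floor at 0.16, 1.12 and 0.94 FPKM and passed the filter only through siDYN-1. DYNC1LI1 was the 1 past 2-fold in the lower direction. The direction of DYNLRB1, a roadblock light chain with a mean log2 change of 0.22, turned under quantile normalization.

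All 3 NCI-H1975 libraries expressed epithelial markers: EPCAM was at 371.7, 217.3 and 230.5 FPKM, and NKX2-1, a lung lineage factor, at 30.8, 25.1 and 20.2 FPKM. The markers of blood, endothelial and stromal cells with a row in the table were at or below 1.47 FPKM in every library, except CD14 and CD68. CD14 was at 5.65 to 10.7 FPKM and CD68, a lysosomal protein, at 34.1 to 47.2 FPKM in NCI-H1975, with the siDYN values of both at or below siCON. FPKM totals were 613996, 671909 and 685680, and the number of reads behind them is unknown.

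At least 2-fold higher with both siRNAs were 151 genes (1.31%), and at least 2-fold lower with both were 87 (0.756%). Alone, siDYN-1 gave 278 genes at least 2-fold higher and 145 lower, and siDYN-2 gave 579 and 478. No gene was past 2-fold in opposite ways. The nearest genes to the line were ANXA8L1 at 1.00 just inside and H2AC18 at 0.998 just outside on the higher side, by the smaller of the 2 log2 changes, and FOXA2 at -1.002 and MAP4K3 at -0.997 on the lower side. Of the 151 higher genes 16 were under 1 FPKM with siCON and so passed the filter only through the siDYN libraries, and of the 87 lower genes 3 passed it only through siCON. Some gene lists likewise hold members under 1 FPKM with siCON.

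No gene passed limma at an adjusted p under 0.05 (0 of 11509, 0.0%) when the 2 siRNAs stood as replicates within each line and the spread was pooled over NCI-H1975 and HCC827. Without adjustment 1777 genes had p under 0.05, of which 770 (6.69%) were higher and 1007 (8.75%) lower. The smallest adjusted p-values (limma) were 0.0716 for CT45A7 and 0.113 for CKMT1A, and all other genes were at 0.297 or above. CT45A7 was listed at 0 with siCON, so it passed the filter only through the siDYN libraries where it is high. When limma was fitted to the 3 NCI-H1975 libraries alone, which leaves 1 residual degree of freedom and a prior of 11.9, it called 100 genes (0.869%), 80 higher and 20 lower. Another fit, added after seeing the data, took the difference between siDYN-1 and siDYN-2 as shared by both lines, that is, the siRNA as a block. It left 1 residual degree of freedom, with a prior of 7.85, and called 1305 genes (11.3%), 629 higher and 676 lower. DYNC1LI1 had an adjusted p of 0.0018 in that blocked fit against 0.297 in the fit without the block (limma). The count of calls thus depended on how the spread was modelled. All 3 fits rest on 1 siCON library per line, whose noise moves the differences with both siRNAs alike and is not measured. The counts and levels given here are therefore descriptions of 3 libraries.

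The direction of the whole distribution depended on the scale. The median log2 change over all genes was -0.02 with siDYN-1 and 0.04 with siDYN-2 as deposited, and -0.13 and -0.10 after scaling to equal FPKM totals. That scaling gave 113 genes at least 2-fold higher and 159 lower, so the higher share went from 63.4% to 41.5%. Transcript length moved with the changes as well. From the 2247 genes with the shortest transcripts to the 2246 with the longest (medians of 1570 and 7322 bases), the median log2 change went from 0.20 to -0.23 with siDYN-1 and from 0.34 to -0.30 with siDYN-2. It also went from 0.14 to -0.19 and from 0.18 to -0.13 in HCC827. The median length was 2090 bases in the 2-fold higher genes, 4405 in the 2-fold lower genes and 3568 over all genes. With the length trend removed, 111 genes remained past 2-fold higher and 66 lower. The part of RNA quality or library preparation in this trend was not tested.

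**Figure D1:**
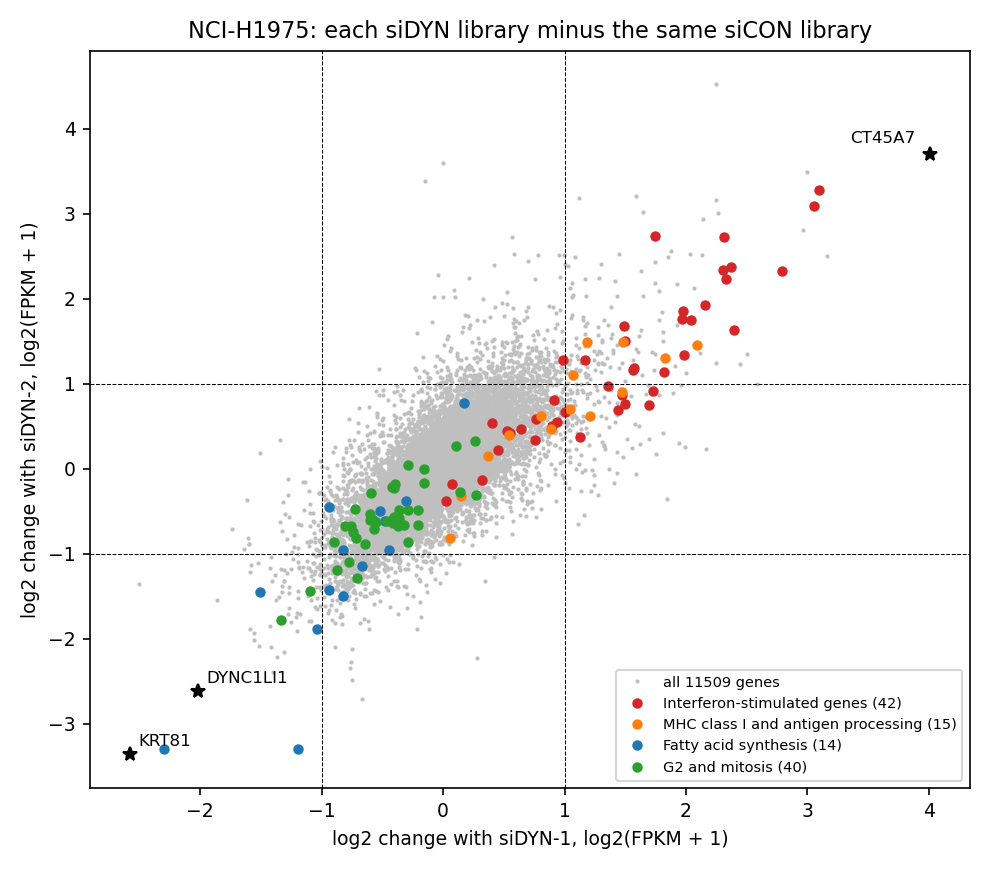
Log2 change of each of 11509 genes in NCI-H1975 with siDYN-1 (x axis) and siDYN-2 (y axis), each on log2(FPKM + 1) from the same siCON library; dashed lines mark 2-fold. Most interferon-stimulated and MHC class I genes lie to the upper right, fatty acid synthesis and mitosis genes to the lower left, and the shared siCON library by itself draws points along the diagonal.

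Interferon-stimulated genes were higher with both siRNAs in NCI-H1975. Cells switch these genes on when interferon, bound to its receptor, activates transcription factors that include STAT2 and IRF9, which bind a promoter element called the interferon-stimulated response element (ISRE). All 42 listed genes passed the filter: 39 were higher with both, 0 lower with both, and 20 at least 2-fold higher with both. The list median was 1.49 with siDYN-1 and 1.06 with siDYN-2, against -0.02 and 0.04 over all genes.

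The ISRE core was looked for in promoters from RefSeq (GRCh38.p14, 1 window per gene that reaches from upstream to just past the start), found by Entrez identifier for 9482 of the 11509 genes. The letters searched were GAAANNGAAA on both strands, with overlapping matches counted. They were present in 21 of the 33 interferon-stimulated genes with a promoter (63.6%), in 18 of 111 of the 2-fold higher genes (16.2%), in 2 of 69 of the 2-fold lower genes (2.9%), in 264 of the 9482 genes (2.78%) and in 3.65% of all 27305 promoters. Outside the interferon list, 7 of 95 of the 2-fold higher genes held it (7.37%). A match is a string of letters and not a shown site. The windows below are those of 5 of the genes with values given here, each in the direction of its gene with the matches in capitals, on whichever strand they lie. They lie at chr1:1013359-1013418 (ISG15, plus strand, first match from base -113 relative to the start), chr1:27672314-27672373 (IFI6, minus strand, -156), chr14:94110603-94110662 (IFI27, plus strand, -108), chr10:89392482-89392541 (IFIT1, plus strand, -116) and chr19:17405726-17405785 (BST2, minus strand, -130).
ISG15: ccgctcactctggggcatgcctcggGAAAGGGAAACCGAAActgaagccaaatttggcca
IFI6: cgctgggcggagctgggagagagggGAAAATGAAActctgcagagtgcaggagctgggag
IFI27: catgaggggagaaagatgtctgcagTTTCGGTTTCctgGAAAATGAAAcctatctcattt
IFIT1: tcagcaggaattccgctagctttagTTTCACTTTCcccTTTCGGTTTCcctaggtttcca
BST2: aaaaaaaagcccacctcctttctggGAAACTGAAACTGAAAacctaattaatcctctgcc

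Among the effectors, IFI27, a mitochondrial protein of the interferon response, was at 628.7, 5238 and 5382 FPKM. IFI6, which protects infected cells from death, was at 213.5, 1826 and 2083 FPKM. ISG15, a ubiquitin-like modifier, was at 467.6, 2326 and 3094 FPKM. In these 3 genes the siDYN libraries lay together and far above siCON, with mean log2 changes of 3.08 ± 0.76, 3.19 ± 0.81 and 2.52 ± 0.89 (SE, n = 2 siRNAs, spread pooled over both lines). MX1, an antiviral dynamin-like GTPase, was at 22.9, 164.9 and 118.8 FPKM, and IFIT1, which binds foreign RNA ends, at 24.1, 128.9 and 129.7 FPKM. BST2 (tetherin), which holds virus particles at the cell surface, was at 66.5, 338.2 and 315.4 FPKM. The RNA-degrading branch was higher too: OAS1, which makes the activator of RNase L, was at 39.5, 165.4 and 136.0 FPKM.

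The regulators of the pathway differed by varying amounts. IRF7, a transcription factor that amplifies interferon production, was at 10.9, 52.1 and 44.3 FPKM, and IRF9, which binds the ISRE, at 35.8, 71.8 and 88.3 FPKM. STAT2, a signal transducer below the receptor, was at 8.27, 11.7 and 9.81 FPKM, under 2-fold with both. The sensors of double-stranded RNA were also modestly higher: DDX58 (RIG-I) was at 18.9, 37.2 and 28.1 FPKM, IFIH1 (MDA5) at 10.6, 22.2 and 17.5 FPKM and EIF2AK2 (PKR) at 13.7, 25.3 and 26.2 FPKM. The RNA interference and RNA sensing list, which holds EIF2AK2, had 3 of 15 genes higher and 8 lower with both. MAVS, the adaptor below RIG-I, was at 10.6, 6.26 and 3.77 FPKM. The interferon genes themselves, chosen after their values were seen, were near the floor and did not all go 1 way. IFNB1 was at 0.06, 0.69 and 0.64 FPKM and IFNL1 at 0.38, 1.88 and 1.59 FPKM, both above siCON in both siDYN libraries. IFNL2 was also above siCON with both, at 0.1, 0.23 and 0.2 FPKM. IFNL3 was at 0, 0.27 and 0 FPKM, and IFNE was below siCON with both, at 0.13, 0.03 and 0.1 FPKM. DDX60, DTX3L and HERC5 were the 3 listed genes without 1 sign.

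**Figure D2:**
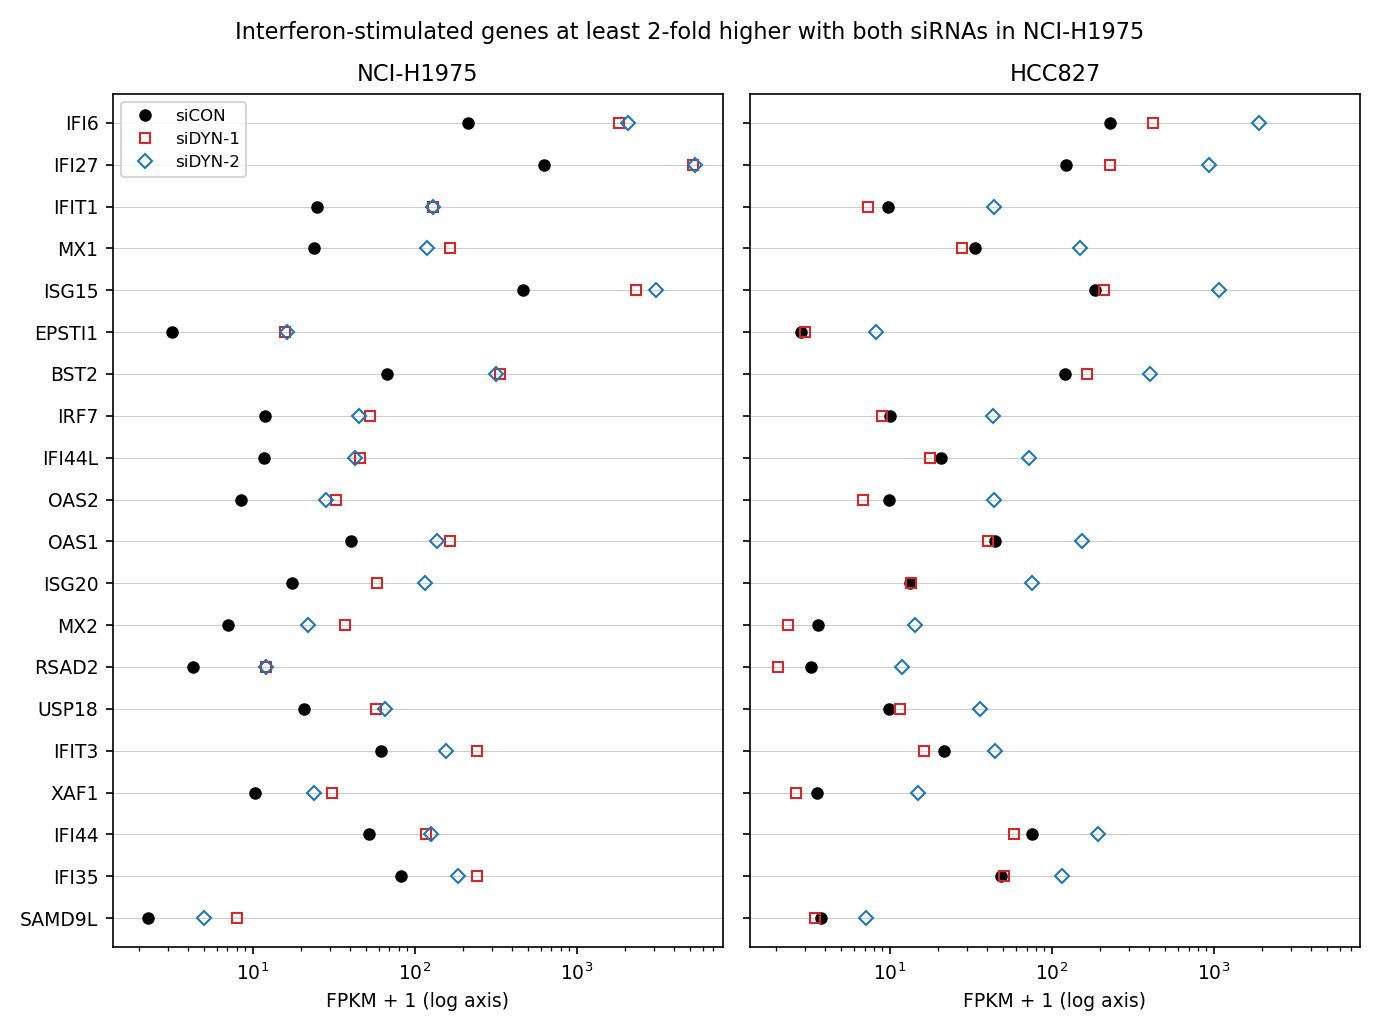
FPKM + 1 (log axis) of the 20 interferon-stimulated genes at least 2-fold higher with both siRNAs in NCI-H1975, in each of the 6 libraries (1 point per library, no error bars). In NCI-H1975 both siDYN libraries lie right of siCON for every gene, as their choice fixes; in HCC827 siDYN-2 lies right of siCON while siDYN-1 lies beside it for most genes, as for ISG15 at 184.5, 208.9 and 1073 FPKM.

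In HCC827, whose libraries do not enter the NCI-H1975 values, the interferon-stimulated genes differed between the siRNAs. With siDYN-2 all 42 were above siCON, with a median of 1.33, and with siDYN-1 10 were above and 32 below, with a median of -0.34. MX1 was at 32.5, 26.8 and 149.4 FPKM in that line, and IFIT1 at 8.77, 6.38 and 43.0 FPKM. IFI6 and IFI27 were above siCON in both HCC827 libraries, by log2 0.89 and 3.06 for IFI6 and by 0.89 and 2.91 for IFI27. DYNC1LI1 was at 2.42 FPKM with siDYN-1 and 1.22 FPKM with siDYN-2 in that line, and its part in this difference was not tested. The larger SE of these genes comes from this disagreement, since the fit pools the spread over the lines.

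MHC class I genes were higher with both siRNAs as well. This machinery cuts proteins in the immunoproteasome, moves the peptides into the endoplasmic reticulum and shows them on the cell surface. Of 15 measured genes 12 were higher and 1 lower with both, 5 at least 2-fold higher, with medians of 1.04 with siDYN-1 and 0.62 with siDYN-2. HLA-B, a class I heavy chain, was at 190.9, 678.9 and 472.8 FPKM, and its constant partner B2M at 655.4, 1495 and 1844 FPKM. PSMB9, an immunoproteasome subunit, was at 64.8, 182.8 and 183.6 FPKM, and TAP1, a peptide pump, at 32.5, 92.0 and 61.9 FPKM. Each of these 4 genes was above siCON in both siDYN libraries. ERAP2, a peptide trimmer, went the other way at 8.51, 6.26 and 5.10 FPKM. Reads of the near-identical HLA genes can be split between them, and how they were assigned is not given in the sources used here. In HCC827 12 of the 15 were above siCON in both libraries, with medians of 0.56 with siDYN-1 and 1.34 with siDYN-2.

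A pair of class II genes stood beside them, both outside the list. HLA-DRA, the class II alpha chain, was at 1.22, 8.75 and 11.7 FPKM, and CD74, the invariant chain, at 7.70, 25.7 and 24.6 FPKM. HCC827 had the same direction in both libraries, with HLA-DRA at 2.88, 8.15 and 8.37 FPKM and CD74 at 2.80, 10.9 and 16.2 FPKM. CIITA, the class II activator, chosen after its values were seen, was at 1.60, 2.20 and 1.90 FPKM in NCI-H1975.

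NF-kB feedback genes and chemokines were higher in part. NF-kB is the factor that drives cytokine genes and its own inhibitors after immune receptors are engaged. Of 34 measured genes 24 were higher and 3 lower with both siRNAs, and 7 were at least 2-fold higher. Under 1 FPKM with siCON were 4 of the 34, which passed the filter only through the siDYN libraries. CCL20, a chemokine that draws lymphocytes and dendritic cells, was at 8.56, 41.1 and 72.3 FPKM, and CCL5, also a direct target of interferon factors, at 3.72, 18.8 and 19.6 FPKM. IL6 was at 5.43, 18.9 and 31.2 FPKM and CXCL8 at 26.3, 60.9 and 110.7 FPKM, with siDYN-2 above siDYN-1. The feedback inhibitors NFKBIA (83.7, 154.2 and 171.0 FPKM) and TNFAIP3 (3.07, 6.98 and 7.46 FPKM) were close to 2-fold. NFKB1, a subunit of the factor, was at 11.5, 11.6 and 11.1 FPKM. CCL20 was also higher in both HCC827 libraries, at 115.1, 425.4 and 613.7 FPKM.

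Fatty acid synthesis genes were lower with both siRNAs. The pathway makes acetyl-CoA, extends it to palmitate and then lengthens and desaturates the chain, under the transcription factor SREBP1. Of 14 measured genes 13 were lower with both and 1 higher, with medians of -0.82 and -1.05, and 4 were at least 2-fold lower. SCD, the stearoyl-CoA desaturase, was at 165.2, 32.9 and 16.0 FPKM, a mean log2 change of -2.79 ± 0.46 (SE, n = 2 siRNAs). SREBF1, which encodes SREBP1, was at 47.5, 20.1 and 3.95 FPKM, much lower with siDYN-2 than with siDYN-1. FASN, the fatty acid synthase, was at 58.57, 19.96 and 20.85 FPKM, alike in the 2 siDYN libraries. ELOVL5, an elongase, was at 54.2, 25.8 and 13.9 FPKM, and ELOVL6, another elongase, at 11.4, 5.44 and 3.61 FPKM. ACLY, which supplies acetyl-CoA in the cytosol, differed less, at 75.0, 60.6 and 57.3 FPKM, and ELOVL1 was the 1 higher gene, at 72.3, 81.4 and 124.8 FPKM. The listed genes are long, with a median of 4863 bases, and with the length trend removed the median of the mean change was -0.79 against -0.89. In HCC827 the list differed less, with medians of -0.08 with siDYN-1 and -0.41 with siDYN-2. There 6 of the 14 genes were lower and 2 higher in both libraries, where 35.2% of all genes were lower and 34.3% higher.

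**Figure D3:**
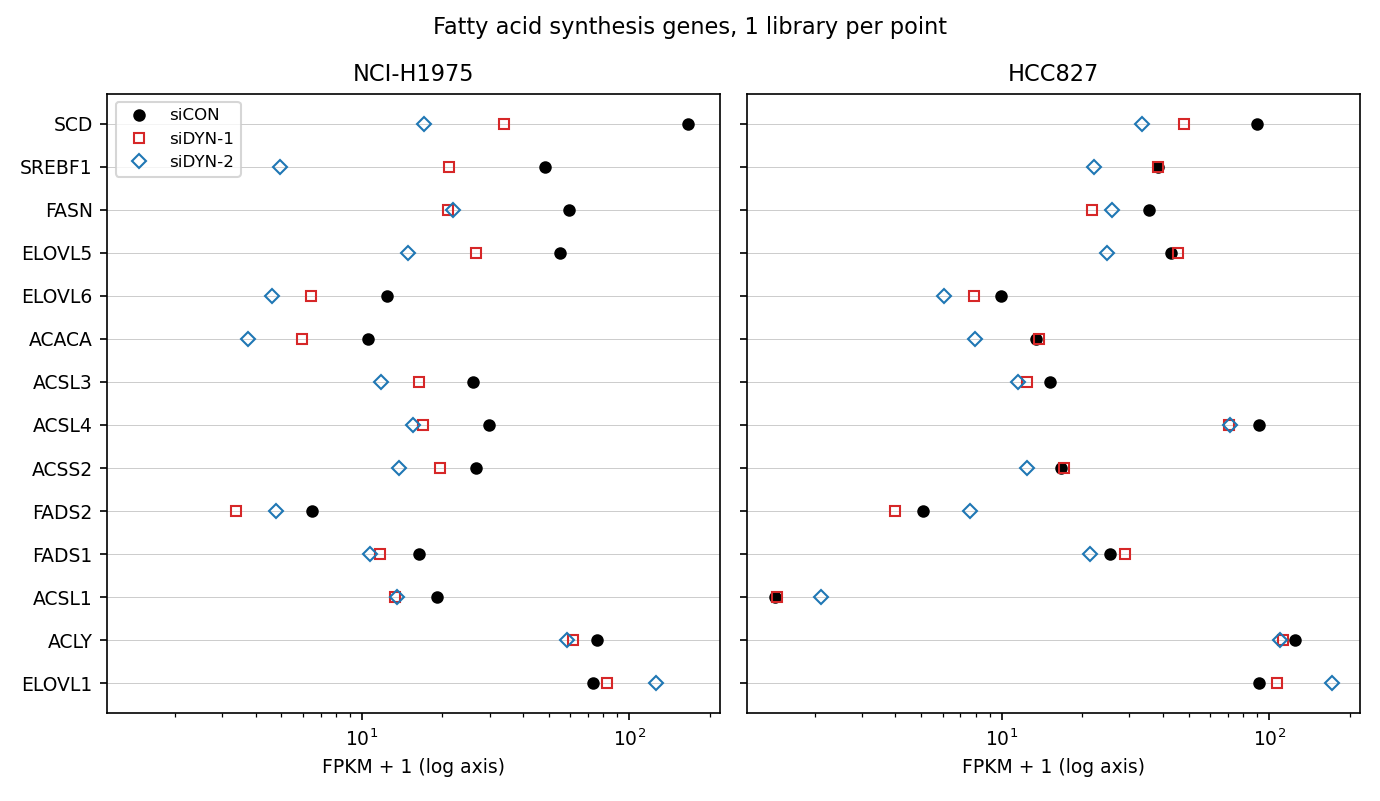
FPKM + 1 (log axis) of the 14 fatty acid synthesis genes in each of the 6 libraries (1 point per library, no error bars), ordered by mean log2 change in NCI-H1975. In NCI-H1975 both siDYN libraries lie left of siCON for every gene but ELOVL1; in HCC827 SCD lies left of siCON with both (89.2, 47.0 and 32.5 FPKM) and SREBF1 with siDYN-2 alone (37.2, 37.4 and 21.2 FPKM).

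Cholesterol synthesis genes, which answer to the related SREBP2, were lower by less. Of 23 measured genes 15 were lower and 3 higher with both, with medians of -0.52 with siDYN-1 and -0.24 with siDYN-2. INSIG1, which holds the SREBP complex in the endoplasmic reticulum, was at 32.5, 15.2 and 13.6 FPKM. In HCC827 the list medians were above 0, at 0.19 and 0.07, and INSIG1 was at 19.97, 22.5 and 18.8 FPKM. An SREBP-type core (TCACNCCAC, both strands) was in 0 of 13 fatty acid promoters and 1 of 18 cholesterol promoters, against 1.15% of all promoters.

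ATF4 targets, the genes of amino acid supply and stress that rise when translation initiation is curbed, were mostly a little higher. Of 32 measured genes 25 were higher and 5 lower with both, 3 of them at least 2-fold higher, with medians of 0.26 and 0.45. DDIT3 (CHOP), a stress factor that can promote cell death, was at 27.1, 83.4 and 258.7 FPKM, and CHAC1, which degrades glutathione, at 2.13, 5.63 and 16.7 FPKM. In both genes siDYN-2 was well above siDYN-1. ATF3, a stress-induced repressor, was at 5.00, 7.00 and 30.6 FPKM, a large difference with siDYN-2 alone. ASNS, the asparagine synthetase, was at 55.6, 63.2 and 99.7 FPKM, and ATF4 itself at 161.7, 171.9 and 307.5 FPKM. Amino acid transporters went in different ways: SLC3A2 was at 117.1, 168.7 and 239.2 FPKM, SLC38A2 at 40.0, 25.3 and 15.2 FPKM and SLC7A1 at 8.12, 6.83 and 4.71 FPKM. SLC7A5 was on both sides of siCON, at 123.6, 167.0 and 70.3 FPKM. The folding branch of the endoplasmic reticulum response had 10 genes higher and 9 lower of 23, 43.5% and 39.1% against 39.7% and 38.6% of all genes. HSPA5 (BiP), its main chaperone, was at 149.0, 235.8 and 215.8 FPKM.

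The core of the C/EBP-ATF response element (TGATGNAA, both strands) was found in 7 of 28 ATF4-list promoters, against 1.63% of the 9482 genes and 3.67% of all promoters. The windows of 2 listed genes are shown with the match in capitals, at chr7:97872444-97872501 (ASNS, minus strand, match from base -68) and chr15:40953237-40953294 (CHAC1, plus strand, from base -209, where the match is on the other strand).
ASNS: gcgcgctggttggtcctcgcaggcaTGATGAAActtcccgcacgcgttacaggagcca
CHAC1: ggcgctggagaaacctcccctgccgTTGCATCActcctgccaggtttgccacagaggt

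Genes of G2 and mitosis were lower with both siRNAs. They drive chromosome segregation, in which dynein itself takes part at kinetochores and spindle poles. Of 40 measured genes 34 were lower and 2 higher with both, with medians of -0.42 with siDYN-1 and -0.60 with siDYN-2, and 2 were at least 2-fold lower. ECT2, the exchange factor that positions the cleavage furrow, was at 28.7, 10.8 and 7.63 FPKM, and CENPF, a kinetochore protein that binds the dynein regulator NDE1, at 10.2, 4.24 and 3.12 FPKM. MKI67, the proliferation antigen, was at 16.6, 8.59 and 6.70 FPKM, and TOP2A, which untangles chromosomes, at 68.9, 39.9 and 31.6 FPKM. The kinases of mitotic entry differed less, with CDK1 at 147.6, 127.4 and 105.7 FPKM and PLK1 at 84.3, 72.97 and 53.01 FPKM. AURKB and BIRC5, subunits of 1 complex at the centromere, were the 2 higher genes, AURKB at 121.5, 130.8 and 147.2 FPKM. In HCC827 31 of the 40 were below siCON in both libraries, with medians of -0.31 and -0.45. In bulk RNA, fewer cells in mitosis and less RNA per cell cannot be told apart.

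Replication genes were less uniform. Of 37 G1/S genes 19 were lower and 5 higher with both, with a median of -0.41 with siDYN-1 and of -0.0044 with siDYN-2. MCM5, a subunit of the replicative helicase, was at 64.8, 40.1 and 41.0 FPKM. CDKN1A (p21), which arrests cyclin-dependent kinases, was at 39.2, 94.0 and 67.4 FPKM and also higher in HCC827, at 10.2, 29.2 and 36.5 FPKM. Of 28 CDK inhibitors and p53-type targets 17 were higher and 6 lower with both, while CCNG1, a cyclin and p53 target, was at 86.3, 32.9 and 17.9 FPKM. Of 20 genes of the BCL2 family, caspases and inhibitors of apoptosis 11 were higher and 7 lower with both. XIAP, an inhibitor of caspases, was at 8.18, 4.62 and 3.85 FPKM.

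Histone genes were higher with siDYN-2 above all. Of 19 listed genes 16 were higher with both siRNAs, with medians of 0.42 with siDYN-1 and 1.19 with siDYN-2. Under 1 FPKM with siCON were 2 of the 19, which passed the filter only through the siDYN libraries. Some members of that list, H2AZ1 and H3-3B among them, are also expressed outside S phase. H2BC5 was at 20.5, 56.5 and 98.4 FPKM and H2AC18 at 62.1, 124.9 and 360.5 FPKM. In HCC827 the list medians were 1.12 and 1.74, above those of NCI-H1975 with the same siRNA. Most histone messages end in a stem-loop without a poly(A) tail, so their share depends on how RNA was selected, which the labels name only as a TruSeq RNA kit. Near-identical copies can share reads, and no transcript length could be matched for this list.

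Messages of the autophagy machinery were near siCON as a group. Of 36 genes of autophagosome initiation and elongation 17 were higher and 11 lower with both siRNAs, 47.2% and 30.6% against 39.7% and 38.6% of all genes. Their medians were 0.05 and 0.08, and the median of the mean change went from 0.05 to -0.06 with equal FPKM totals. RB1CC1 (FIP200), a subunit of the initiating kinase complex, was at 8.28, 5.10 and 3.22 FPKM, and WDR45, a lipid-binding protein of early autophagosomes, at 24.0, 34.1 and 57.9 FPKM. Of the 7 ATG8 genes, whose products coat the autophagosome membrane, 6 were higher with both: GABARAP was at 208.5, 261.0 and 252.8 FPKM, and MAP1LC3B2, a near-identical copy of MAP1LC3B that can share its reads, at 8.70, 19.9 and 22.9 FPKM. MAP1LC3C, also among the 6 and near the floor at 1.29 FPKM with siCON, turned lower when the length trend was removed. The ATG8 genes are short, with a median of 1634 bases, and that removal took their median of the mean change from 0.34 to 0.10. Of 18 cargo receptors 10 were lower and 5 higher with both; BNIP3L, a receptor on mitochondria, was at 33.1, 16.4 and 17.3 FPKM, and CALCOCO2 (NDP52), a receptor for bacteria and mitochondria, at 20.3, 13.3 and 11.7 FPKM.

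Lysosomal genes were also split, with 16 of 40 higher and 15 lower with both, 40.0% and 37.5%, near the 39.7% and 38.6% of all genes. LAMP2, a lysosomal membrane protein, was at 59.7, 30.7 and 22.9 FPKM. CTSL and CTSS, cysteine proteases, were higher, CTSL at 219.6, 426.9 and 442.2 FPKM and CTSS at 26.4, 46.6 and 52.3 FPKM. ATP6V0D2, a proton pump subunit, was at 4.21, 0.95 and 0.22 FPKM and was the 1 listed gene at least 2-fold lower. No listed gene was at least 2-fold higher with both. The list median of the mean change was 0.06 as deposited and -0.08 with equal FPKM totals, so its sign depended on the scale.

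Genes of dynein's partners and cargo membranes went in both directions, mostly by less than 2-fold. Of 15 dynactin and regulator genes 8 were lower and 4 higher with both; CAPZA1, a capping protein of the dynactin filament, was at 82.3, 45.7 and 29.6 FPKM, and DCTN4 (p62), a subunit of its pointed end, at 16.2, 8.25 and 9.76 FPKM. Of 19 cargo adaptors 7 were higher and 8 lower, 36.8% and 42.1%, near the 39.7% and 38.6% of all genes. RILP, which links dynein to late endosomes, was at 17.4, 33.2 and 31.4 FPKM. BICD2, which links it to RAB6 vesicles, was at 4.17, 6.52 and 7.28 FPKM. RAB6A itself, a GTPase of Golgi transport, was at 34.3, 16.5 and 12.2 FPKM, and was lower in both HCC827 libraries, at 38.2, 19.9 and 19.2 FPKM. GOLPH3, which ties Golgi membranes to actin, was at 42.0, 18.3 and 17.5 FPKM, and KIF5B, a heavy chain of the opposing motor kinesin-1, at 17.5, 10.1 and 6.51 FPKM. Of 33 Golgi and coat genes 17 were lower and 9 higher with both. GOLPH3 was the 1 at least 2-fold lower, and COPZ2 the 1 at least 2-fold higher, at 2.91, 6.84 and 19.8 FPKM. Of 28 endosome RAB and recycling genes 13 were lower and 9 higher with both, and RAB32 was the 1 at least 2-fold higher, at 24.7, 56.8 and 76.4 FPKM.

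Tubulins, the subunits of the microtubule track, were higher for 10 of 13 genes and lower for 3. TUBA1A was at 29.2, 109.8 and 178.0 FPKM, TUBB2A at 21.1, 48.7 and 59.1 FPKM and TUBB3 at 191.2, 418.0 and 429.1 FPKM, all 3 at least 2-fold higher with both. In HCC827 4 of the 13 were higher and 5 lower with both, near the 34.3% and 35.2% of all genes there. TUBA1A was at 7.00, 7.65 and 30.6 FPKM there, TUBB2A at 9.94, 13.9 and 28.0 FPKM and TUBB3 at 143.5, 140.9 and 166.8 FPKM. Tubulin genes are similar in sequence, so reads can be split between them. Of 28 centrosome, cilium and nuclear envelope linker genes 21 were lower and 5 higher; SYNE2 (nesprin-2), which connects nuclei to motors, was at 5.70, 2.88 and 1.45 FPKM. With the length trend removed the median of that list was -0.20 against -0.27.

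Nuclear-encoded respiratory chain genes, which are short, were higher with both for 24 of 35 and lower for 7, with medians of 0.38 and 0.35. NDUFA1, a subunit of complex I, was at 291.4, 556.5 and 529.7 FPKM. Their median length was 2064 bases, and with the length trend removed the median of the mean change went from 0.35 to 0.18. Cytosolic ribosomal proteins, also short, had 16 of 32 higher and 10 lower, and their median of 0.05 turned to -0.09 with equal FPKM totals and -0.14 with the length trend removed. HMOX1, which degrades haem and is a target of the antioxidant factor NRF2, was at 166.4, 559.8 and 763.9 FPKM, while TXNRD1 of the same list was at 136.9, 55.2 and 68.2 FPKM. That list had 9 of 20 higher and 8 lower, and its median of 0.14 was at -0.0018 with equal FPKM totals.

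Junction, integrin and matrix genes were more often lower. CDH1 (E-cadherin), the adhesion protein of epithelia, was at 59.9, 27.5 and 32.9 FPKM, and in HCC827 at 117.9, 58.1 and 71.0 FPKM. CLDN1, a tight junction protein, was the 1 junction gene at least 2-fold higher, at 0.30, 3.27 and 2.38 FPKM. It was under 1 FPKM with siCON and passed the filter only through the siDYN libraries where it is high. Of 32 junction genes 20 were lower and 8 higher with both. SNAI2, a repressor of epithelial genes, was at 0.87, 2.22 and 2.90 FPKM, so it too passed the filter only through the siDYN libraries. The 12 mesenchymal genes past the filter were split with 4 higher and 3 lower, and 2 of the 12 were under 1 FPKM with siCON. ITGB1, the common integrin beta chain, was at 72.9, 37.5 and 43.1 FPKM, and ITGAV at 14.3, 7.80 and 4.29 FPKM, among 16 of 24 integrin, laminin and matrix genes that were lower with both. MET, a receptor kinase of lung cancers, was at 41.0, 20.9 and 12.4 FPKM, and EGFR at 13.6, 10.0 and 7.17 FPKM. The EGFR family and its ligands were split, with 4 of 12 genes higher and 4 lower with both (33.3% each). AREG, a ligand, was higher, at 14.5, 22.6 and 27.8 FPKM.

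**Figure D4:**
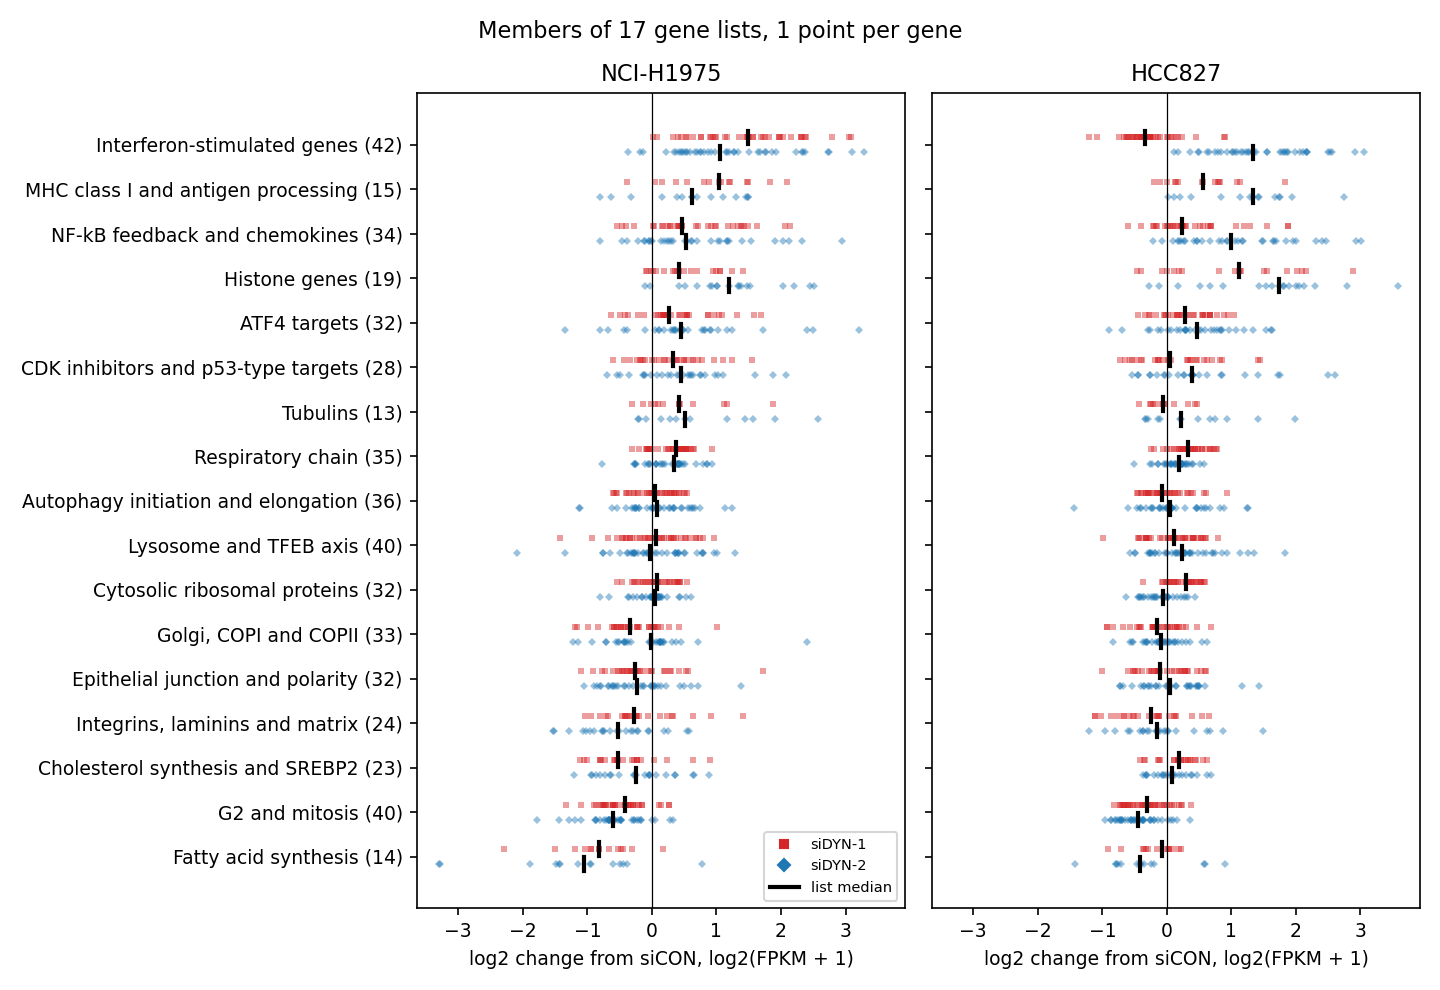
Log2 change from siCON of each member (1 point per gene) of 17 gene lists in NCI-H1975 and HCC827, with siDYN-1 in red above siDYN-2 in blue and a black bar at each list median. The interferon list has medians of 1.49 and 1.06 in NCI-H1975 and of -0.34 and 1.33 in HCC827, while the mitosis list lies below 0 with both siRNAs in both lines; axes are differences of log2(FPKM + 1).

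Keratinizing and S100 genes contributed some of the largest single differences. Of 22 keratin and squamous genes past the filter 12 were higher and 5 lower with both, 54.5% and 22.7%. At least 2-fold higher were 4 of them. Under 1 FPKM with siCON were 5 of the 22, which passed the filter only through the siDYN libraries. S100A2, a calcium-binding protein of basal epithelia, was at 10.5, 102.1 and 64.2 FPKM, and KRT81, a hair-type keratin with close copies, at 18.7, 2.30 and 0.92 FPKM. MUC1, an epithelial mucin, was at 1.69, 8.42 and 6.62 FPKM. VGF, a secreted neuropeptide precursor, was at 11.9, 101.3 and 143.4 FPKM, and ANKRD1, a target of the mechanical signal factor YAP, at 1.02, 8.59 and 45.5 FPKM. CKMT1A, a mitochondrial creatine kinase with a near-identical copy, was at 1.24, 16.5 and 14.7 FPKM, with a mean log2 change of 2.89 ± 0.22 (SE, n = 2 siRNAs). CT45A7, a cancer-testis gene of a family of near-identical copies, was listed at 0 with siCON and was at 15.1 and 12.1 FPKM with the siDYN siRNAs, so no fold is given.

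Among the lower genes, ASPH, an aspartate hydroxylase of the endoplasmic reticulum, was at 113.3, 42.3 and 20.8 FPKM. APOBEC3B, a cytidine deaminase that edits DNA, was at 124.1, 40.5 and 32.9 FPKM, lower while most interferon genes were higher. ADAM9, a membrane protease, was at 82.9, 27.5 and 21.1 FPKM, and TWF1 (twinfilin), which binds actin monomers, at 193.4, 75.1 and 67.2 FPKM. IL6ST (gp130), the shared receptor chain of the IL-6 family, was at 11.1, 4.06 and 2.48 FPKM beside the higher IL6. Of the 238 genes past 2-fold, 95 of the higher and 72 of the lower were in none of the 41 lists.

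HCC827 gave a comparison that shares no library with NCI-H1975, although it shares the siRNAs. Of the 151 genes at least 2-fold higher in NCI-H1975, 110 (72.8%) were higher in both HCC827 siDYN libraries, against 34.3% of all 11509 genes. Of the 87 lower genes 77 (88.5%) were lower in both, against 35.2% of all genes. The sizes were smaller, with a median of 0.43 with siDYN-1 and 1.27 with siDYN-2 for the higher set, where NCI-H1975 had 1.402 and 1.502, and of -0.52 and -0.49 for the lower set, where NCI-H1975 had -1.19 and -1.39. At least 2-fold in both HCC827 libraries were 27 of the higher genes, 17.9% of the NCI-H1975 genes and 38.0% of the 71 such HCC827 genes. For the lower genes it was 4, which is 4.6% of the 87 and 40.0% of the 10 in HCC827. Length moved with the changes in both lines, as given above, and with the length trend removed the shares on the same side were 61.3% of the higher and 77.3% of the lower genes. Limma called 0 genes (0.0%) in HCC827, with 643 at an unadjusted p under 0.05 and a smallest adjusted p of 0.0729. For the difference between the lines it also called 0 (0.0%), with 162 at an unadjusted p under 0.05. With the siRNA as a block limma called 69 genes (0.6%) in HCC827, 59 higher and 10 lower, and 3 (0.0261%) for the difference between the lines. Those 3 were ANGPTL4, CT45A7 and U2AF1, which was chosen after its values were seen. CT45A7 was listed at 0 with NCI-H1975 siCON and passed the filter only through the siDYN libraries. U2AF1, a splicing factor subunit, was at 128.5, 155.3 and 185.1 FPKM in NCI-H1975 and at 11.5, 0.01 and 0 FPKM in HCC827. How its reads were assigned is not given in the sources used here, and a loss of U2AF1 in HCC827 was not tested.

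**Figure D5:**
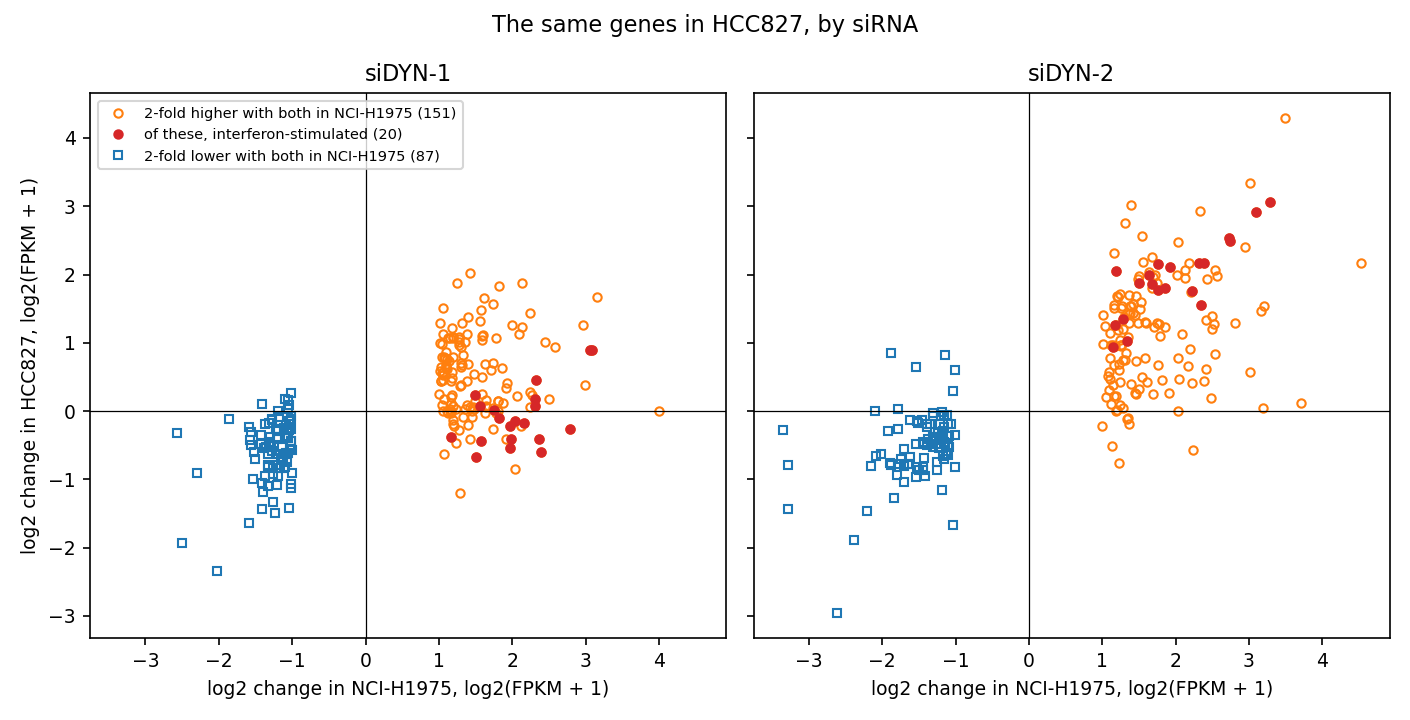
Log2 change in NCI-H1975 (x axis) and HCC827 (y axis) of the 151 genes at least 2-fold higher and the 87 at least 2-fold lower with both siRNAs in NCI-H1975, for siDYN-1 (left) and siDYN-2 (right), on log2(FPKM + 1) from each line's siCON. The 20 interferon-stimulated genes (red) lie from -0.67 (RSAD2) to 0.89 (IFI6, IFI27) in HCC827 with siDYN-1 and from 0.94 (SAMD9L) to 3.06 (IFI6) with siDYN-2, while most lower genes lie below 0 with both.

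Beside DYNC1LI1, the genes with the largest smallest difference over all 4 siDYN libraries included ASPH, SCD, RHOBTB3 and LPGAT1 on the lower side. ASPH was at 1196, 525.3 and 321.4 FPKM in HCC827, and SCD at 89.2, 47.0 and 32.5 FPKM. RHOBTB3, an ATPase of Golgi transport, was at 40.2, 14.9 and 13.2 FPKM, and in the HCC827 libraries at 16.3, 7.91 and 7.84 FPKM. LPGAT1, a lipid acyltransferase, was at 12.2, 4.21 and 4.8 FPKM and at 13.2, 5.61 and 5.34 FPKM. Each of these was below siCON in every siDYN library of both lines. On the higher side PLAAT2, a phospholipid-modifying enzyme, was at 0.69, 7.03 and 14.1 FPKM and at 0.08, 1.92 and 1.99 FPKM. PLAAT2 was under 1 FPKM with NCI-H1975 siCON, so it passed the filter only through the siDYN libraries. EMC6, a subunit of the membrane insertase of the endoplasmic reticulum, was at 47.8, 127.2 and 145.8 FPKM and at 83.3, 217.7 and 205.7 FPKM. TMPRSS11E, an epithelial serine protease, was at 4.33, 16.8 and 27.7 FPKM and at 2.35, 8.94 and 11.7 FPKM.

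A minority of genes had opposite signs with the 2 siRNAs in NCI-H1975. BLOC1S2, a subunit of a lysosome positioning complex, was at 29.8, 18.1 and 49.4 FPKM, and in HCC827 at 21.4, 8.13 and 26.8 FPKM. NDRG4 was at 3.87, 2.19 and 7.08 FPKM and in HCC827 at 6.90, 2.88 and 21.02 FPKM. MORN4 was at 6.95, 3.65 and 10.9 FPKM and in HCC827 at 4.37, 1.40 and 6.25 FPKM. These 3 genes thus had the same order of siRNAs in both lines. In the other direction PADI4, which converts arginine to citrulline in histones, was at 3.89, 9.53 and 2.11 FPKM, and MGAT1, a Golgi enzyme of N-glycan synthesis, at 30.7, 52.8 and 20.5 FPKM. MGAT1 in HCC827 was at 27.0, 32.2 and 12.7 FPKM, again with siDYN-1 above and siDYN-2 below siCON.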

How the data were processed

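The authors deposited FPKM values with 2 decimals for 6 siRNA libraries, per the file headers; RNA was extracted with Trizol and prepared with a TruSeq kit, per the labels' protocols. Bowtie 0.12.2 and the builds mm8 (mouse) and GRCh38.p12 are named without a role, per the submitters' processing notes; the quantifier, annotation and strand setting: not given in the sources used here. Of 17462 lines 17442 were complete genes; 20 were left out. Columns were matched to samples by name, and 0 value columns were unmatched. Depth is unknown and an exact 0 is reported as listed at 0.

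Values were transformed to log2(FPKM + 1). Genes with at least 1 FPKM in 1 or more of the 3 NCI-H1975 libraries were tested. Limma 3.58.1 (R 4.3.3, trended prior variance, two-sided, Benjamini-Hochberg adjusted p under 0.05) was fitted to all 6 libraries with the siRNAs as replicates within line. It was checked on simulated data with the same small spread for every gene, so that check does not cover the spread of these data. With 2 residual degrees of freedom and 1 library per treatment, p-values measure the spread between siRNAs, which may be technical. Transcript lengths were the longest per gene in GENCODE 29 (97.6% of genes matched).

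The genes, the 41 gene lists, 3 promoter motifs and tests were chosen with earlier results of these data known. Named genes were the dynein 1 subunits; per direction the 15 with the largest smaller change of the 2 siRNAs and the 10 with the largest smallest change over both lines; up to 4 per list and further members where a role is described; 5 per direction opposite in HCC827; and 5 per direction of opposite sign with the siRNAs. HLA-DRA was named with its class. Alternatives were another pseudocount, other filters, 2 scalings, no variance trend, fewer libraries, single siRNAs, a fold threshold of 1.5 and, added after seeing the data, removal of the length trend in 20 bins and a limma fit with the siRNA as a block, 1 term for siDYN-2 against siDYN-1 shared by both lines.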

Additional observations from a re-analysis of the deposited data

Results flagged for a closer look

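Results are listed here because both siDYN libraries of one line lay on the opposite side of siCON from both of the other line. For genes at least 2-fold in NCI-H1975 the limma test of the difference gave adjusted p = 1.0 for each. With the siRNA as a block across lines, a fit added after seeing the data, limma gave an adjusted p of 0.0288 for ANGPTL4, 0.307 for F2RL1, 0.297 for LYPLA1 and 0.377 for PTPRH. Only ANGPTL4 of these 4 passed in either fit. The 4 are 1 of the 151 higher and 3 of the 87 lower genes. They were picked by the same values that the test uses, with the adjustment made over all 11509 genes. ANGPTL4, a secreted inhibitor of lipoprotein lipase, was at 4.47, 12.3 and 24.9 FPKM in the NCI-H1975 libraries (siCON, siDYN-1, siDYN-2) and at 33.2, 13.8 and 22.1 FPKM in those of HCC827, a difference in log2 change of 2.65. F2RL1, a protease-activated receptor, was at 66.1, 32.1 and 29.3 FPKM and at 17.1, 20.9 and 31.0 FPKM (difference -1.63). LYPLA1, a depalmitoylating enzyme, was at 89.9, 41.4 and 25.4 FPKM and at 54.3, 61.2 and 55.5 FPKM (difference -1.54). PTPRH, a receptor phosphatase, was at 15.1, 6.77 and 6.89 FPKM and at 21.9, 22.4 and 27.1 FPKM (difference -1.20). Over cholesterol synthesis genes the median of the per-gene difference was -0.43 (list medians -0.42 in NCI-H1975 and 0.13 in HCC827), and over cytosolic heat shock genes it was -0.0506 (-0.13 and -0.004). These medians were not tested.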

How the results depend on the processing

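With the siRNA as a block across lines, chosen after seeing the data, limma called 1305 genes in NCI-H1975 against 0 without it, of which 1302 were of 1 sign with both siRNAs, 69 in HCC827 and 3 for the difference between the lines. It called 0 genes in NCI-H1975 under a pseudocount of 0.1, no filter, the filter on all 3 libraries, equal FPKM totals, quantile normalization and no variance trend. Limma called 100 with the NCI-H1975 libraries alone, and from 0 to 99 with 1 library left out (99 without either HCC827 siDYN library, where the prior had 12.01 and 12.21 degrees of freedom against 3.68). In HCC827 it called 1 with a pseudocount of 0.1 and from 0 to 71 with 1 library left out (71 without HCC827 siDYN-1 and 4 without HCC827 siDYN-2). For the difference between the lines it called 1 with a pseudocount of 0.1 and from 0 to 5 with 1 library left out (2 without HCC827 siDYN-1 and 5 without HCC827 siDYN-2). A line's own siCON cannot be left out of its contrast. The 238 genes past 2-fold (151 higher, 87 lower) became 499 (310, 189) with a pseudocount of 0.1, 423 (278, 145) for siDYN-1 alone, 1057 (579, 478) for siDYN-2 alone and 1416 (658, 758) at 1.5-fold; equal FPKM totals gave 159 lower. The cause of these shifts was not tested beyond the thresholds themselves. The median of the mean change moved from -0.52 to -0.67 for mitosis genes, from 0.50 to 0.36 for ATF4 targets and from 0.49 to 0.38 for NF-kB genes with equal FPKM totals; for NF-kB genes it was 0.72 with a pseudocount of 0.1 and 0.35 with the length trend removed. With 1 siRNA left out the ATF4 median was 0.26 to 0.45. Of lists whose siRNA medians shared a sign and whose median was at least 0.1 in size, and of named genes of 1 sign with both siRNAs, these turned in sign: NRF2 targets (-0.0018 with equal FPKM totals, -0.0143 with length removed), the proteasome (-0.006 with equal FPKM totals, -0.0301 with quantile normalization and -0.0567 with length removed), DYNLRB1 (-0.0012 with quantile normalization, -0.0745 with length removed) and MAP1LC3C (-0.0427 with length removed). Lists nearer 0, or with siRNA medians of opposite sign, also turned under at least 1 setting, among them dynein 1 subunits, autophagy initiation, lysosome and ribosomal proteins. Length could not be removed for histone genes. The unknown depth limits all low values.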
